A study of Mus musculus with 18 samples.

Results

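Transcripts of 42 mouse genes for ribosome biogenesis and RNA polymerase I were followed in embryonic stem cells starved of a single amino acid. The genes were taken by name: they are the rows of the deposited count tables, among 55471 gene identifiers, whose Ensembl ID carries one of 42 listed symbols in GENCODE vM21, and all 42 were found and tested in every comparison. The cells were E14, an established mouse embryonic stem cell line, grown on gelatin with serum and leukaemia inhibitory factor (LIF). Wild-type cells (Wt) and Eif2ak4-/- cells (Gcn, a GCN2 knock-out) were kept for 3 h in SILAC medium with 5% dialyzed serum and LIF that held all amino acids (Unstarved), no arginine (Arg) or no leucine (Leu). Each of the 6 groups had 3 libraries of polyadenylated RNA, 18 in all. All groups, controls included, had therefore been moved to the SILAC medium with dialyzed serum. How many clones the Gcn line comprised, and whether the 3 libraries of a group came from separate cultures, is not given in the sources used here. The p-values therefore cover no more than the variation among the libraries at hand, which may be technical.

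RNA polymerase I transcribes the long ribosomal RNA precursor in the nucleolus. Box C/D and box H/ACA small nucleolar ribonucleoproteins (snoRNPs) modify and help to cleave it, and a large set of assembly factors folds it into the small and the large ribosomal subunit. Dividing stem cells spend much of their biosynthesis on this pathway. Amino acid supply is sensed by the kinase GCN2, which binds uncharged tRNA, and by mTORC1, which is known to control rRNA synthesis. The 42 genes held 5 polymerase subunits, 4 proteins of box C/D and 4 of box H/ACA snoRNPs, 5 nucleolar chaperones and rRNA transcription regulators, 13 factors of small subunit assembly and 11 of large subunit assembly. The libraries were made from poly(A)-selected RNA, so ribosomal RNA itself was not measured.

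Library totals ran from 14777012 to 38814785 counts. Levels are given in CPM, the count of a gene relative to the TMM-scaled total of its library. Eif2ak4, the deleted gene, stood at 32.2, 33.4 and 29.7 CPM in the 3 Wt Unstarved libraries and at 6.23, 4.85 and 4.62 CPM in the 3 Gcn Unstarved libraries (log2 -2.61 ± 0.13, adjusted p = 1.73e-12). All 11 embryonic stem cell markers were detected in every group, with summed levels of 8091 to 8997 CPM in Wt Unstarved and 8864 to 9237 CPM in Gcn Unstarved. The 3 Gcn libraries numbered 1 stood apart from the other 6 Gcn libraries on the second principal component of the Gcn set (scores of 22.7 to 27.8 against -17.9 to -5.97). Without them the calls of Heatr1 and Ltv1 in Gcn Arg and of Rrs1 between Gcn Leu and Gcn Arg were lost, with others between the unstarved genotypes. In bulk RNA, fewer cells of a kind and less RNA per cell cannot be told apart.

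The 42 genes covered a wide range of expression. Per kilobase of exon and as a mean over 18 libraries, Npm1 (nucleophosmin, a nucleolar histone chaperone) had the highest level at 1610 CPM per kb. It was followed by Nhp2 at 472 and Ncl (nucleolin) at 235 CPM per kb. The lowest levels were those of Wdr12 at 12.4, Polr1e at 12.7 and Polr1a at 18.1 CPM per kb, and the median gene stood at 60.7 CPM per kb. No gene was near the detection limit: the lowest count of any of the 42 in any library was 626. The ratio of the highest to the lowest of the 6 group means ran from 1.10 for Pes1 to 3.16 for Rrp9, with a median of 1.42. The highest mean lay in an unstarved group for 28 of the 42 genes (17 in Wt, 11 in Gcn). The lowest lay in a starved Gcn group for 29 (18 in Gcn Arg, 11 in Gcn Leu). The same counts were not made over all genes, so these cannot be read as particular to the 42.

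Starvation changed many of the 42 genes by moderate amounts, more often downward than upward, in all 4 comparisons of a starved with its unstarved group. In Wt Arg, 20 genes fell and 7 rose, with a median log2 fold change of -0.13 over the 42 against -0.008 over all 16140 genes tested. The test called 20% of all genes lower and 20.9% higher in that comparison. In Wt Leu, 15 fell and 4 rose (median -0.08 against 0.007), where 14.1% and 15.5% of all genes were called (29.6% in either direction). In Gcn Arg, 16 fell and 3 rose (median -0.16 against -0.011), beside 13.7% and 14.3% of all 16369 genes. In Gcn Leu, 10 fell and 3 rose (median -0.18 against 0.000), beside 10% and 11.7% of all genes (21.8% in either direction). The share of the 42 called lower was thus above the share of all genes in each comparison (47.6%, 35.7%, 38.1% and 23.8%), while the share called higher was below it (16.7%, 9.52%, 7.14% and 7.14%). In these 4 comparisons the Arg and Leu groups of a genotype share their unstarved libraries.

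Same-numbered libraries deviated together in Gcn cells and, with mostly smaller correlations, in Wt cells. In Gcn cells a fit with the replicate number as a block called more genes. It called 26 lower and 6 higher in Gcn Arg (24.2% and 22.3% of all genes). In Gcn Leu it called 23 lower and 4 higher (20.2% and 20.5% of all genes). The block added 13 calls among the 42 in Gcn Arg, with absolute log2 fold changes of 0.14 to 0.32, and 14 in Gcn Leu, of 0.14 to 0.30, and removed none. The added calls in Gcn Arg were higher for Nop56, Gar1 and Noc4l and lower for Polr1d, Nop58, Nhp2, Npm1, Utp15, Bysl, Gnl3, Nle1, Noc2l and Noc3l. Those in Gcn Leu were higher for Ngdn and lower for Polr1c, Polr1d, Nop58, Dkc1, Nhp2, Mybbp1a, Ddx21, Utp15, Wdr75, Ltv1, Nop16, Gnl3 and Noc3l. Scaled by library size only, which shifted the median of all genes in Gcn Arg by 0.12, Gcn Arg had 9 genes lower and 5 higher. Of all 16369 genes, 1397 were then lower and 3449 higher. The summed level of 8 transcripts taken as signs of RNA quality (mitochondrial, histone H1, Malat1 and Gm42418) was 39600 to 60300 CPM in Gcn Unstarved, 24330 to 41530 in Gcn Arg and 27230 to 38350 in Gcn Leu, against 19950 to 33250 in Wt Unstarved, 25680 to 32490 in Wt Arg and 23690 to 31570 in Wt Leu. That of 4 neural ectoderm markers was 266.5 to 280.5 CPM in Gcn Unstarved, 197.6 to 207.6 in Gcn Arg and 229.4 to 254.1 in Gcn Leu. Endoderm markers (5, Afp at 0 in Gcn Unstarved and Gcn Arg) summed to 5.84 to 8.62 CPM in Gcn Unstarved, 9.14 to 13.04 in Gcn Arg and 9.21 to 14.4 in Gcn Leu. The stem cell markers were higher in Gcn Leu (9749 to 10480 CPM) than in Gcn Unstarved, the 4 mesoderm markers lower (4.50 to 5.24 against 6.05 to 7.43 CPM) and the 4 trophectoderm markers lower in Gcn Arg (1.20 to 1.56 against 1.59 to 1.96 CPM). In Wt cells the trophectoderm sum was 12.8 to 14.2 CPM unstarved, 10.4 to 11.1 in Arg and 11.7 to 12.7 in Leu. The part of these sums in the results was not tested.

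**Figure D1:**
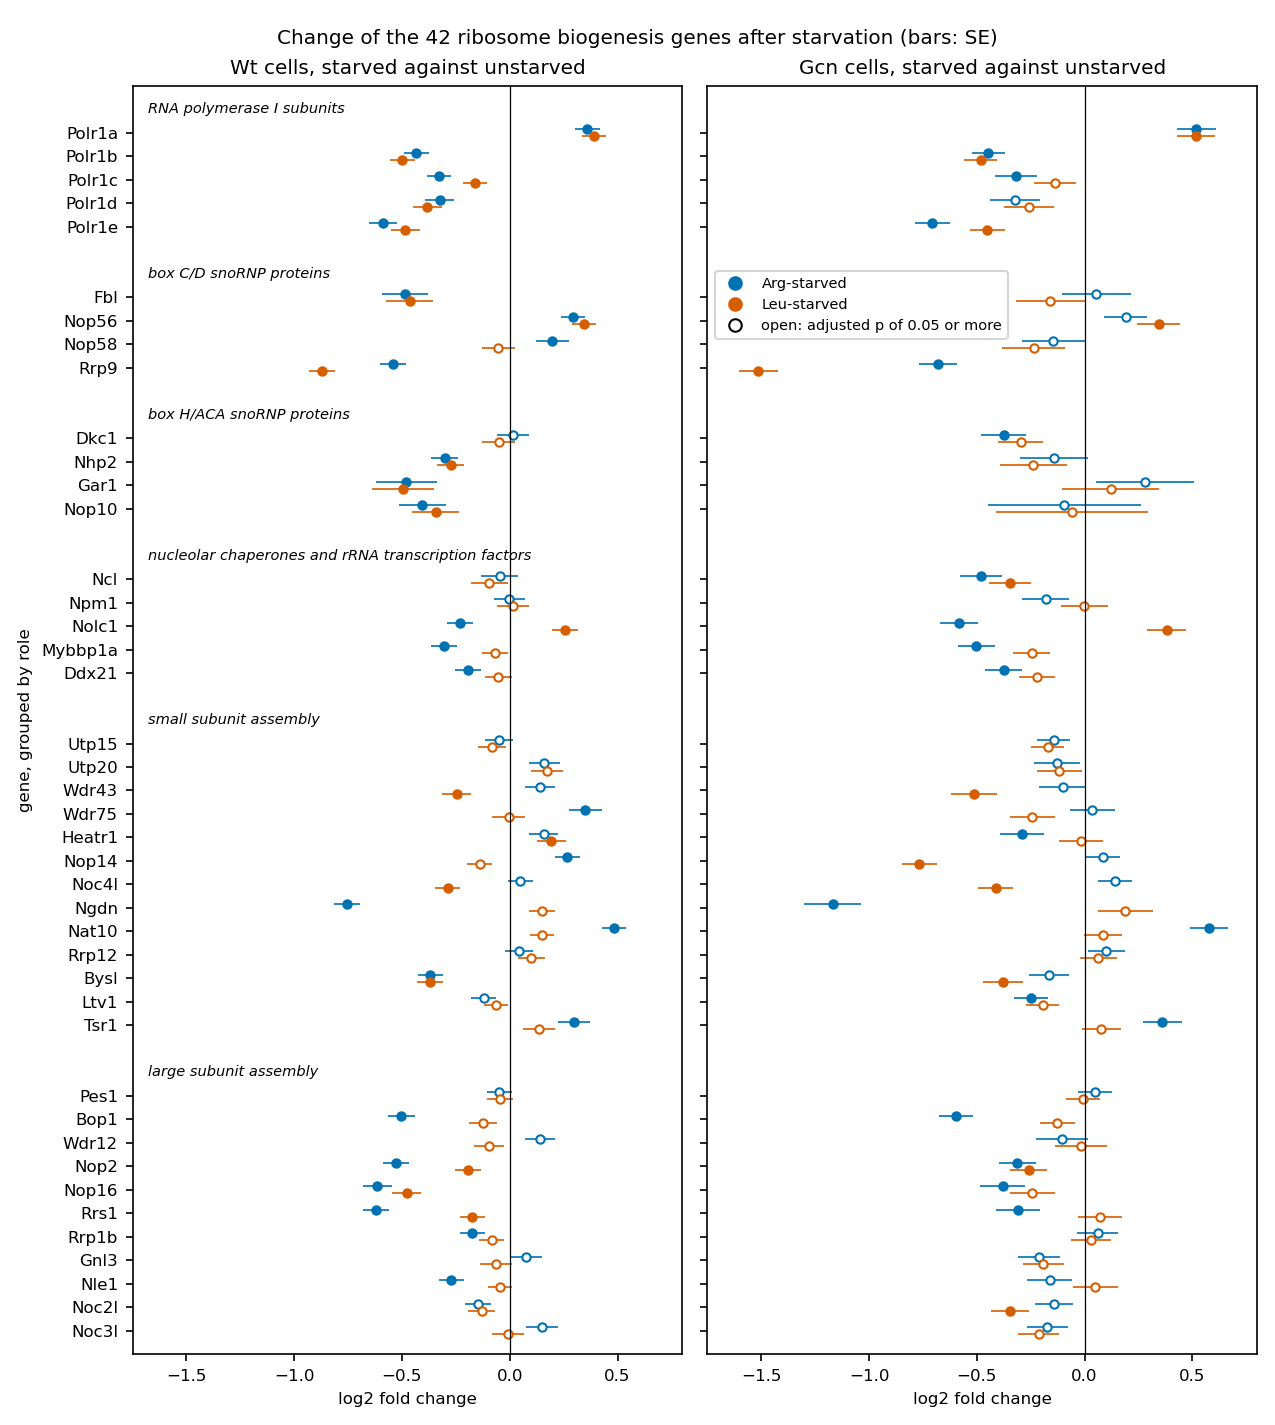
Log2 fold change (x axis, bars are SE) of each of the 42 genes (y axis, grouped by role) in Arg-starved (blue) and Leu-starved (orange) cells against unstarved cells of the same genotype, Wt on the left and Gcn on the right, 3 libraries per group. Filled points have an adjusted p under 0.05. Most filled points lie left of 0, Polr1a lies right of 0 in all 4 comparisons, and Rrp9 in Gcn Leu lies farthest left at -1.51.

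The RNA polymerase I subunits moved in opposite directions. Polr1a, the largest and catalytic subunit (ENSMUSG00000049553, chr6:71909053-71984935, plus strand, GRCm38), rose in all 4 comparisons. With the block in Gcn cells Nop56 did so as well. Polr1a stood at 195, 193 and 185 CPM in Wt Unstarved, 245, 239 and 249.8 in Wt Arg and 249.6, 239.6 and 263 in Wt Leu. In Gcn cells it stood at 165, 158 and 146 CPM unstarved, 234, 215 and 221 in Arg and 247, 202 and 219.9 in Leu. All 12 starved libraries lay above all 6 unstarved libraries. The rise was 1.28-fold in Wt Arg (log2 0.36 ± 0.06, adjusted p = 7.92e-05), 1.31-fold in Wt Leu (adjusted p = 7.34e-05) and 1.43-fold in Gcn Arg (adjusted p = 0.000737). The log2 value was 0.52 ± 0.09 in Gcn Arg and 0.52 ± 0.09 in Gcn Leu (adjusted p = 0.00115).

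Polr1b, the second-largest subunit, which completes the active centre, fell in all 4 comparisons. Its levels were 197, 192 and 193 CPM in Wt Unstarved, 152, 136 and 143 in Wt Arg and 133, 138 and 142 in Wt Leu, and 201, 199.6 and 189 CPM in Gcn Unstarved, 141, 147 and 142 in Gcn Arg and 144, 143 and 133 in Gcn Leu. Starved and unstarved libraries did not overlap in either genotype, and the 4 log2 values lay between -0.50 and -0.43 (largest adjusted p = 0.000698). Polr1e, which forms the initiation-linked heterodimer of the enzyme, also fell in all 4. It went from 61.8, 61.4 and 59.96 CPM in Wt Unstarved to 42.1, 40.4 and 39.3 in Wt Arg and 46.5, 43.2 and 41.5 in Wt Leu, and from 62.4, 65.0 and 66.8 CPM in Gcn Unstarved to 38.3, 39.5 and 40.6 in Gcn Arg and 46.4, 46.7 and 48.2 in Gcn Leu. No starved library reached the unstarved range. The log2 fold changes were -0.59 ± 0.07 and -0.48 ± 0.07 in Wt and -0.71 ± 0.08 and -0.45 ± 0.08 in Gcn (largest adjusted p = 0.00136).

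Polr1c and Polr1d, which RNA polymerase III also uses, were lower by smaller amounts. Polr1c stood at 287, 286 and 307 CPM in Wt Unstarved, 231, 235 and 234 in Wt Arg and 257, 266 and 265 in Wt Leu, and at 222, 229 and 255 CPM in Gcn Unstarved, 168, 199 and 195 in Gcn Arg and 196, 223 and 218 in Gcn Leu. It fell in Wt Arg (log2 -0.33 ± 0.05, adjusted p = 0.000142), in Wt Leu (log2 -0.16 ± 0.05, adjusted p = 0.0354) and in Gcn Arg (log2 -0.32 ± 0.10, adjusted p = 0.0275). In Gcn Leu its libraries overlapped the unstarved ones (log2 -0.14 ± 0.10, adjusted p = 0.365, or 0.0408 with the block). Polr1d stood at 105, 96.1 and 108 CPM in Wt Unstarved, 87.0, 77.9 and 82.3 in Wt Arg and 81.2, 76.0 and 80.8 in Wt Leu, and at 88.7, 100.3 and 109 CPM in Gcn Unstarved, 67.4, 85.0 and 84.3 in Gcn Arg and 74.4, 87.9 and 84.9 in Gcn Leu. It fell in Wt Arg (-0.32) and Wt Leu (-0.38). In Gcn cells the starved libraries lay below the unstarved ones, with log2 values of -0.32 ± 0.12 (adjusted p = 0.0542, or 0.000158 with the block) and -0.26 ± 0.12 (adjusted p = 0.133, or 0.00116 with the block).

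**Figure D2:**
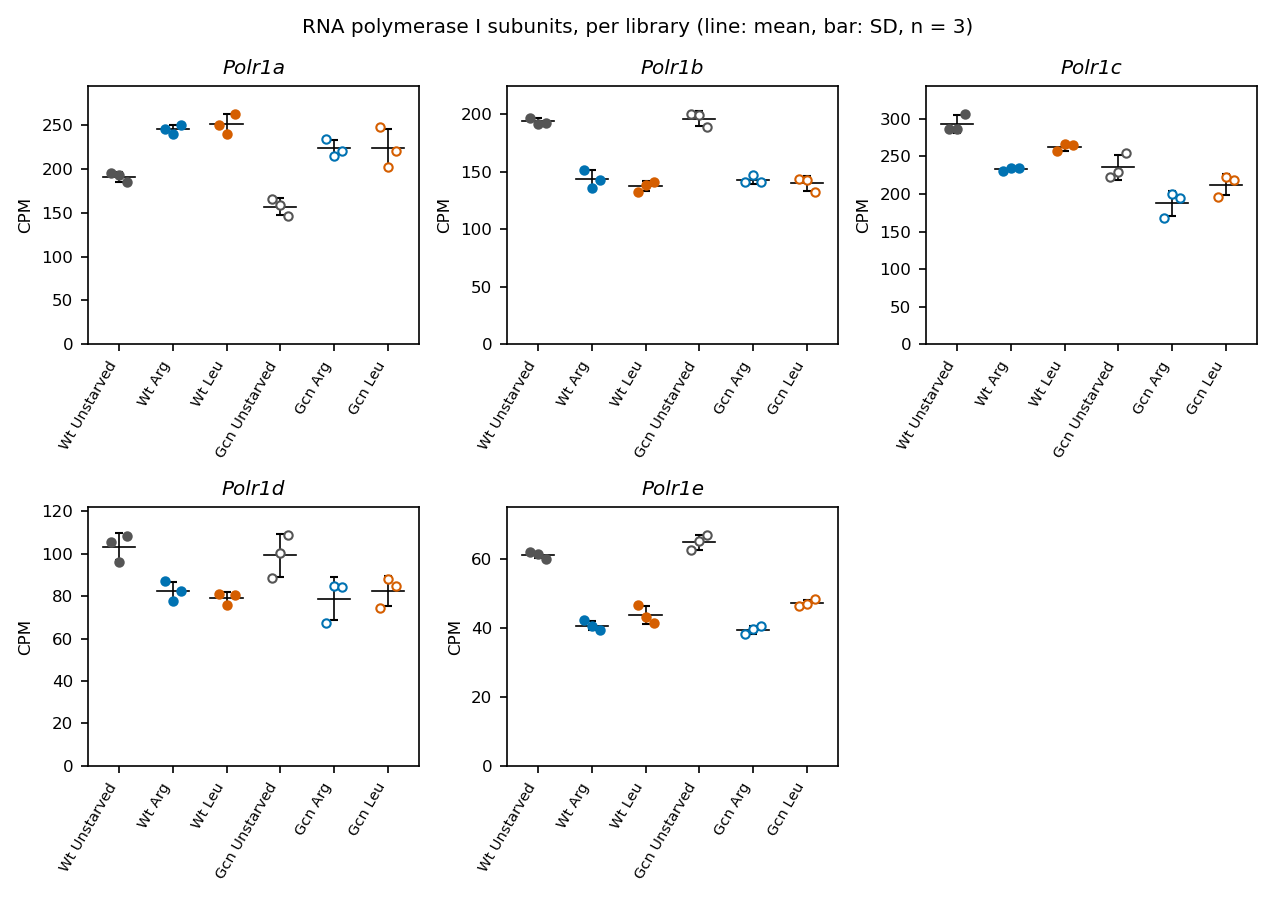
Level (CPM, y axis from 0) of the 5 RNA polymerase I subunits in each library of the 6 groups (x axis); points are libraries (filled Wt, open Gcn), lines are means and bars SD over 3 libraries. Polr1a is higher in every starved library than in any unstarved one, and Polr1b and Polr1e are lower.

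The box C/D snoRNP proteins, which guide 2′-O-methylation of rRNA, did not move together. Rrp9, the protein particular to the U3 snoRNP that starts precursor cleavage (ENSMUSG00000041506, chr9:106475963-106485424, plus strand, GRCm38), fell in all 4 comparisons and had the widest range of the 42 genes. It went from 279, 254 and 288 CPM in Wt Unstarved to 185, 182 and 196 in Wt Arg and 145, 149.7 and 154 in Wt Leu. Gcn cells went from 233, 254 and 258 CPM to 147, 167 and 148 in Arg and 87.2, 91.6 and 81.1 in Leu. The 3 Gcn Leu libraries were the lowest of all 18 and overlapped no other group. The fall was 1.46-fold in Wt Arg (log2 -0.54 ± 0.06), 1.83-fold in Wt Leu (-0.87 ± 0.06), 1.61-fold in Gcn Arg (-0.68 ± 0.09) and 2.86-fold in Gcn Leu (-1.51 ± 0.09, adjusted p = 7.56e-07). Rrp9 has the highest GC content of the 42 genes (59.9%), and with GC correction the Wt Arg value was -0.34 and the Gcn Leu value -1.43, both still called.

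Fbl, the methyltransferase of the particle, fell in Wt Arg (log2 -0.49 ± 0.11, adjusted p = 0.0032) and Wt Leu (log2 -0.46 ± 0.11, adjusted p = 0.00635). In Gcn cells its values were 0.06 and -0.16, with overlapping libraries. In Wt Unstarved it stood at 228, 161 and 164 CPM in libraries 1 to 3, and without library 1 the Wt Arg and Wt Leu values were -0.31 and -0.28, both still called. Nop56, a core scaffold protein, rose in Wt Arg (0.29), Wt Leu (0.35) and Gcn Leu (0.34), and its Gcn Arg value was 0.19 (adjusted p = 0.173, or 0.0032 with the block). Nop58, its partner in the same particle, rose in Wt Arg (log2 0.20 ± 0.08, adjusted p = 0.0479). The call was lost without Wt Arg library 2 (0.12) or Wt Unstarved library 3 (0.13) and with GC correction, where the value was 0.02, and its Wt Leu value was -0.05, or -0.20 with GC correction (adjusted p = 0.0177). In Gcn cells it stood at -0.14 in Arg and -0.24 in Leu, which the block called lower (adjusted p = 0.0318 and 0.00137).

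The box H/ACA snoRNP proteins, which make pseudouridine and also stabilize telomerase RNA, gave calls in different comparisons. Nhp2, Gar1 and Nop10 fell in both Wt comparisons, by log2 values of -0.30 and -0.27, -0.48 and -0.50, and -0.41 and -0.34 in Arg and Leu. In Gcn cells none of these 3 was called without the block, with Gar1 at 0.28 and 0.12. The block called Nhp2 lower in Gcn Arg and Gcn Leu (adjusted p = 0.0428 and 0.00303) and Gar1 higher in Gcn Arg (adjusted p = 0.0207). Levels spread among libraries of a group: Nop10 stood at 112, 199 and 208 CPM in the 3 Gcn Unstarved libraries, and Gar1 at 129, 90.5 and 80.6 CPM in Wt Unstarved. Gar1 was not called in Wt Arg or Wt Leu when any one of the 3 starved libraries was left out (highest adjusted p = 0.158 and 0.117 over all alternatives). Without Wt Unstarved library 1 its values were -0.25 and -0.27, still called. Dkc1, the pseudouridine synthase itself, fell in Gcn Arg (log2 -0.38 ± 0.10, adjusted p = 0.0149) and stood at 0.02 and -0.05 in the Wt comparisons. In Gcn Leu its value was -0.30 (adjusted p = 0.055, or 0.00041 with the block).

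Among the nucleolar chaperones and regulators of rRNA transcription, Nolc1 moved in opposite directions under the 2 starvations in both genotypes. Some alternatives added genes to this. For example, with the block in Gcn cells Ngdn was lower in Arg and higher in Leu and Noc4l the reverse, and with GC correction in Wt cells Ngdn, Nop14 and Noc4l were called in opposite directions. Nolc1 (Nopp140) is a chaperone of snoRNPs that links the nucleolus to Cajal bodies. It stood at 529, 539.6 and 538 CPM in Wt Unstarved, 455, 443 and 469 in Wt Arg and 595, 640.2 and 687 in Wt Leu. In Gcn cells it stood at 526, 558 and 504 CPM unstarved, 374, 359 and 321 in Arg and 734, 694 and 631 in Leu. Every Arg library lay below and every Leu library above the unstarved range of its genotype. The log2 values were -0.23 ± 0.06 in Wt Arg (adjusted p = 0.00494) and 0.26 ± 0.06 in Wt Leu (adjusted p = 0.00355). In Gcn cells they were -0.58 ± 0.09 in Arg (adjusted p = 0.000293) and 0.38 ± 0.09 in Leu (adjusted p = 0.00771).

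Mybbp1a, a nucleolar Myb-binding protein that acts on rRNA transcription and processing, fell under arginine starvation in both genotypes. It went from 921, 897 and 892 to 734, 715 and 743 CPM in Wt Arg (-0.30) and from 909, 922 and 862 to 629, 672 and 589 CPM in Gcn Arg (-0.50 ± 0.09, adjusted p = 0.000729). In the Leu groups it stood at 797, 863 and 930.2 CPM in Wt, overlapping the unstarved libraries, and at 808, 759 and 696 CPM in Gcn (log2 -0.25 ± 0.09, adjusted p = 0.0582, or 0.000728 with the block). Ddx21, an RNA helicase of the same nucleolar steps, fell in Wt Arg (-0.19) and Gcn Arg (-0.38). Ncl fell in Gcn Arg (log2 -0.48 ± 0.10, adjusted p = 0.00213) and Gcn Leu (-0.35), and its Wt values were -0.05 and -0.10, the latter -0.20 and called with GC correction (adjusted p = 0.0453). Npm1 was called in none of the 9 comparisons, with values of -0.18 to 0.01 after starvation, although the block called it lower in Gcn Arg than in Gcn Unstarved (adjusted p = 0.00492) and than in Gcn Leu (adjusted p = 0.0105).

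The 13 factors of small subunit assembly held rises as well as falls. In Wt Arg 4 of them rose (30.8%) and 2 fell (15.4%), beside 20.9% and 20% of all genes. In Wt Leu 1 rose (7.69%) and 3 fell (23.1%), beside 15.5% and 14.1%. In Gcn Arg 2 rose (15.4%) and 3 fell (23.1%), beside 14.3% and 13.7%. In Gcn Leu none rose and 4 fell (30.8%), beside 11.7% and 10%. Ngdn (neuroguidin, a component of the small subunit processome; ENSMUSG00000022204, chr14:55015454-55024137, plus strand, GRCm38) fell under arginine starvation. It went from 153, 137 and 157 to 87.6, 90.7 and 85.6 CPM in Wt cells and from 143, 161 and 188 to 62.2, 76.7 and 78.1 CPM in Gcn cells. The Leu groups stood at 166, 166 and 164 CPM in Wt and 162, 206 and 189 CPM in Gcn. All 6 Arg libraries were lower than all 12 others. The fall was 1.69-fold in Wt (log2 -0.76 ± 0.06, adjusted p = 9.03e-08) and 2.25-fold in Gcn (log2 -1.17 ± 0.13, adjusted p = 3.08e-05). The Leu values were 0.15 in Wt (adjusted p = 0.0743) and 0.19 in Gcn (adjusted p = 0.34, or 0.0142 with the block).

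Nat10, which acetylates the small subunit rRNA, rose under arginine starvation. It went from 154, 158 and 154 to 218, 211 and 222 CPM in Wt (log2 0.48 ± 0.06, adjusted p = 4.07e-06) and from 165, 149.7 and 150.3 to 239, 242 and 209 CPM in Gcn (log2 0.58 ± 0.09, adjusted p = 0.000284). In Leu it stood at 167, 168 and 182 CPM in Wt and 175, 167 and 149 CPM in Gcn, below every Arg library of the genotype, with log2 values of 0.15 and 0.09 against unstarved cells (adjusted p = 0.0558 and 0.541). Tsr1, a GTPase-like factor of late small subunit maturation, rose in the same comparisons, by 0.30 in Wt Arg and 0.36 in Gcn Arg. Without Gcn Unstarved library 2 the Gcn call of Tsr1 had an adjusted p of 0.0523.

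Nop14 and Noc4l, which bind each other in the processome, had their lowest levels in Gcn Leu. Nop14 (ENSMUSG00000036693, chr5:34638536-34660148, minus strand, GRCm38) stood at 172, 167 and 154 CPM in Wt Unstarved, 197, 195 and 200.1 in Wt Arg and 154, 149 and 145 in Wt Leu. In Gcn cells it stood at 166, 169 and 159.8 CPM unstarved, 182, 164 and 176 in Arg and 102, 89.6 and 97.9 in Leu. All 3 Gcn Leu libraries lay below the other 15 libraries. Nop14 rose in Wt Arg (log2 0.27 ± 0.06, adjusted p = 0.0015) and fell in Gcn Leu (log2 -0.77 ± 0.08, adjusted p = 3.58e-05), while Wt Leu was at -0.14 ± 0.06 (adjusted p = 0.0848) and Gcn Arg at 0.08. Noc4l fell in Wt Leu (log2 -0.29 ± 0.06, adjusted p = 0.00133) and Gcn Leu (log2 -0.41 ± 0.08, adjusted p = 0.00232) and stood at 0.05 and 0.14 in the Arg comparisons.

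Wdr43, Wdr75, Heatr1 and Utp15 belong to the subcomplex that binds the precursor first and is also needed for its transcription. Wdr43 stood at 409, 432 and 358 CPM in Wt Unstarved, 431, 456 and 433 in Wt Arg and 348, 343 and 321 in Wt Leu, and at 419, 449 and 444 CPM in Gcn Unstarved, 381, 398 and 435 in Gcn Arg and 267, 300.0 and 346 in Gcn Leu. The Leu libraries lay below the unstarved libraries in both genotypes. It fell in Wt Leu (log2 -0.25 ± 0.07, adjusted p = 0.0118) and in Gcn Leu (log2 -0.51 ± 0.11, adjusted p = 0.00412), and without Wt Unstarved library 2 the Wt call had an adjusted p of 0.0552. Wdr75 rose in Wt Arg (log2 0.35 ± 0.08, adjusted p = 0.00156) and was called in none of the other 3 comparisons, with 0.04 in Gcn Arg and -0.24 in Gcn Leu (adjusted p = 0.12, or 0.00447 with the block). Heatr1 rose in Wt Leu (log2 0.19 ± 0.07, adjusted p = 0.0422) and fell in Gcn Arg (log2 -0.29 ± 0.10, adjusted p = 0.0476), and both calls were lost under 6 alternatives each. Bysl, which acts with Ltv1 on the maturing small subunit, fell in Wt Arg (-0.37), Wt Leu (-0.37) and Gcn Leu (-0.38), and the Gcn Leu call was lost without Gcn Unstarved library 2 (adjusted p = 0.0551). Its exons overlap those of Ccnd3 on the other strand, which had 191% of its counts, and the strand setting of the counting is not given in the sources used here. Ltv1 fell in Gcn Arg (log2 -0.25 ± 0.08, adjusted p = 0.0272), a call lost under 7 alternatives. Utp15, Utp20 and Rrp12 were called in none of the 4 comparisons, with values of -0.17 to 0.17. Rrp12 was called higher in Wt Leu with GC correction (adjusted p = 0.0494). With the block Utp15 was lower in Gcn Arg and Gcn Leu (adjusted p = 0.0415 and 0.0187).

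The 11 factors of large subunit assembly gave no rise in any starvation comparison. In Wt Arg 6 of them fell (54.55%), in Wt Leu 3 (27.27%), in Gcn Arg 4 (36.36%) and in Gcn Leu 2 (18.18%). Of all genes, 20%, 14.1%, 13.7% and 10% were called lower in these comparisons, and 11.7% to 20.9% higher. The 3 members of the PeBoW complex, which processes the large subunit rRNA, differed: Bop1 fell under arginine starvation, while Pes1 and Wdr12 were called in neither starvation of either genotype against unstarved cells (values of -0.10 to 0.14). Wdr12 has the lowest GC content of the 42 genes (40.4%), and with GC correction it was lower in Wt Leu (-0.26, adjusted p = 0.00131) and stood at -0.06 in Wt Arg. Bop1 went from 246, 236 and 247 to 181, 159.8 and 174 CPM in Wt Arg and from 233, 229 and 222 to 146, 159 and 145 CPM in Gcn Arg. It stood at 217, 213 and 239.9 CPM in Wt Leu and 217, 212 and 196 CPM in Gcn Leu. The Arg libraries overlapped no other group of their genotype. The log2 fold changes were -0.50 ± 0.06 (adjusted p = 1.05e-05) in Wt Arg and -0.60 ± 0.08 (adjusted p = 0.00011) in Gcn Arg, against -0.12 and -0.13 in Leu.

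Rrs1, which brings the 5S ribonucleoprotein into the large subunit, stood at 224, 202 and 211 CPM in Wt Unstarved, 139, 136 and 138 in Wt Arg and 185, 198 and 182 in Wt Leu. In Gcn cells it stood at 139, 165 and 159 CPM unstarved, 115, 139 and 117 in Arg and 161, 173 and 149.5 in Leu. Gcn Unstarved was thus already below every Wt Unstarved library, and Gcn Arg library 2 overlapped it. Rrs1 fell in Wt Arg (log2 -0.62 ± 0.06, adjusted p = 4.93e-07), in Wt Leu (-0.17) and in Gcn Arg (log2 -0.31 ± 0.10, adjusted p = 0.0374). Nop16, a nucleolar factor of the early large subunit, went from 182, 174 and 181 CPM in Wt Unstarved to 125, 113 and 112 in Wt Arg and 139, 123 and 125 in Wt Leu. In Gcn cells it went from 141, 151 and 159 CPM to 100.3, 129 and 115 in Arg and 119, 135 and 126 in Leu. All starved libraries were lower than the unstarved libraries of their genotype. It fell in Wt Arg (-0.62 ± 0.07), Wt Leu (-0.48 ± 0.07) and Gcn Arg (-0.38 ± 0.10), and Gcn Leu was at -0.24 ± 0.10 (adjusted p = 0.116, or 0.00264 with the block).

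Nop2, which methylates the large subunit rRNA (ENSMUSG00000038279, chr6:125131909-125144753, plus strand, GRCm38), fell in all 4 comparisons. It went from 322, 326 and 309.6 CPM in Wt Unstarved to 235, 208 and 219 in Wt Arg and 277, 272 and 290.2 in Wt Leu. Gcn cells went from 267, 248 and 254 CPM to 204, 219 and 193 in Arg and 235, 210.0 and 194 in Leu. Starved and unstarved libraries did not overlap within a genotype. The log2 fold changes were -0.53 ± 0.06 in Wt Arg (adjusted p = 3.24e-06) and -0.19 ± 0.06 in Wt Leu (adjusted p = 0.0226). In Gcn they were -0.31 ± 0.09 in Arg (adjusted p = 0.0156) and -0.26 ± 0.09 in Leu (adjusted p = 0.0449). The Wt Leu, Gcn Arg and Gcn Leu calls of Nop2 were each lost under several alternatives (highest adjusted p = 0.0966, 0.13 and 0.194). Nle1 and Rrp1b fell in Wt Arg (-0.27 and -0.17), and both calls were lost with GC correction (adjusted p = 0.288 and 0.0726). Noc2l fell in Gcn Leu (log2 -0.35 ± 0.09, adjusted p = 0.0119), which missed the threshold when Gcn Unstarved library 2 was omitted (adjusted p = 0.0519). Gnl3 (nucleostemin, a nucleolar GTPase of stem cells) and Noc3l were called in no starvation comparison and in both Gcn comparisons with the block.

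Promoters of the 42 genes were searched for CACGTG, the E-box that Myc-Max dimers are known to bind, which reads the same on both strands. RefSeq windows of GRCm38.p6, from 250 bases before to 50 after a transcript start, were found for 37 of the 42 genes, and Npm1, Fbl, Rrs1, Rrp12 and Bop1 had none. The motif lay in a window of 8 of the 37 (21.6%), of 17 of 66 of the other pathway genes (25.8%) and of 2187 of 27025 genes in all (8.09%). Counting only the 250 bases before the start, it lay in 1 of the 37 (2.7%), 10 of the 66 (15.2%) and 6.86% of all genes. That 1 gene was Nop2, whose promoter is printed as the one member with the motif before its start, here the 250 bases of chr6:125131633-125131882 on the plus strand with the motif in capitals, 5′ to 3′.
Nop2: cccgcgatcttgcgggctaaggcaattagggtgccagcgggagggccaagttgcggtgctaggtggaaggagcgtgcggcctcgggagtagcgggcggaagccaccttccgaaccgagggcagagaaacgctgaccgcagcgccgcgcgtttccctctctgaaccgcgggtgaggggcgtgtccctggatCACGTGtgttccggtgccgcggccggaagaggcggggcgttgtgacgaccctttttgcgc

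In the other 7 genes the motif lay 3 to 41 bases into the transcript. A 30-base stretch that holds it is shown for all 8, 5′ to 3′ on the strand of the gene and with the motif in capitals, to let the flanks be compared. These sites were picked out after the values were seen. In GRCm38.p6 the stretches lie at chr6:125131811-125131840 (Nop2, plus), chr10:13193092-13193121 (Ltv1, minus), chr10:88826765-88826794 (Utp20, minus), chr11:3963965-3963994 (Pes1, plus), chr11:72441347-72441376 (Mybbp1a, plus), chr11:74898092-74898121 (Tsr1, plus), chr11:82908355-82908384 (Nle1, minus), chr17:71616220-71616249 (Wdr43, plus).
Nop2: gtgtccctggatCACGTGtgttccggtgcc
Ltv1: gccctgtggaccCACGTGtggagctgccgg
Utp20: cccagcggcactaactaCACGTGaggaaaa
Pes1: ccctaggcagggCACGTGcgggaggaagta
Mybbp1a: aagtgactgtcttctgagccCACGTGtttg
Tsr1: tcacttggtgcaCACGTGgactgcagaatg
Nle1: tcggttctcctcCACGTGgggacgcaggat
Wdr43: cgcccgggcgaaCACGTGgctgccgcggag
Of these 8 genes, Nop2 fell in all 4 starvation comparisons, Mybbp1a in both Arg comparisons, Wdr43 in both Leu comparisons, Nle1 in Wt Arg and Ltv1 in Gcn Arg. Tsr1 rose in both Arg comparisons, and Pes1 and Utp20 were called in none. A match describes these letters only, and binding was not measured.

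Smaller calls were less stable: over all comparisons 19 of 26 calls with an absolute log2 value under 0.3 were lost under at least 1 alternative, against 21 of 90 larger ones. In Wt Arg, 7 of the 27 calls were lost under at least 1 alternative setting or left-out library, those of Nop58, Nhp2, Gar1, Nop10, Ddx21, Rrp1b and Nle1. In Wt Leu it was 9 of 19 (Polr1c, Fbl, Nhp2, Gar1, Nop10, Wdr43, Heatr1, Nop2 and Rrs1), in Gcn Arg 8 of 19 (Polr1c, Dkc1, Heatr1, Ltv1, Tsr1, Nop2, Nop16 and Rrs1), and in Gcn Leu 5 of 13 (Nop56, Ncl, Bysl, Nop2 and Noc2l). Polr1a, Polr1b, Polr1e, Rrp9 and Nolc1 kept all their starvation calls under every alternative run. So did others, among them Ngdn, Nat10, Bop1, Nop14, Noc4l, Mybbp1a and Wdr75. Leaving out Wt Unstarved library 2 raised the number of rises in Wt Arg from 7 to 12, and leaving out Gcn Unstarved library 2 reduced the falls in Gcn Leu from 10 to 6.

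Calls in the 2 genotypes, which share no library, can be set side by side. Of the 20 genes that fell in Wt Arg and the 16 that fell in Gcn Arg, 12 were the same (60% and 75%), where 48.9% and 70.7% of all genes called lower in the respective genotype were shared. These were Polr1b, Polr1c, Polr1e, Rrp9, Nolc1, Mybbp1a, Ddx21, Ngdn, Bop1, Nop2, Nop16 and Rrs1. For leucine starvation, 7 genes fell in both genotypes (46.7% of the Wt and 70% of the Gcn calls, beside 45.4% and 63.1% of all genes): Polr1b, Polr1e, Rrp9, Wdr43, Noc4l, Bysl and Nop2. The shared rises were Polr1a, Nat10 and Tsr1 under arginine starvation. They made up 42.9% of the Wt and 100% of the Gcn rises, beside 50.1% and 72.6% over all genes. Under leucine starvation the shared rises were Polr1a, Nop56 and Nolc1 (75% and 100%, beside 49.2% and 64.6% over all genes). In these fits none of the 42 was called in opposite directions in the 2 genotypes under the same starvation. With the block in Gcn cells only, Nop58 (higher in Wt Arg without it) was lower in Gcn Arg and Gar1 (lower in Wt Arg without it) was higher. With the block in Wt cells as well, Gar1 was no longer called in Wt Arg (-0.46, adjusted p = 0.0832). The Wt Arg call of Nop58 was lost with GC correction (0.02, adjusted p = 0.83).

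The Leu- and Arg-starved groups were then compared directly, to ask which genes responded differently to the amino acid removed. In Wt cells 7 of the 42 genes were higher and 8 lower in Leu than in Arg, where 5.25% and 4.76% of all genes were called. In Gcn cells 4 were higher and 5 lower, where 4.64% and 3.88% of all genes were called (8.52% in either direction). All 9 Gcn calls were also called in the same direction in Wt cells, beside 55.6% (higher) and 50.6% (lower) of the Gcn calls over all genes. Nolc1, Ngdn, Bop1 and Rrs1 were higher in Leu than in Arg, and Rrp9, Wdr43, Nop14, Noc4l and Nat10 were lower. The median over the 42 genes was 0.02 in each genotype, beside 0.004 (Wt) and 0.000 (Gcn) over all genes. With the block, Gcn cells had 12 genes higher and 10 lower (14.4% and 12.3% of all genes), and Wt cells 9 and 8 (10.6% and 9.98% of all genes, 20.6% in either direction).

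The difference was largest for Ngdn, at log2 0.91 ± 0.06 in Wt (1.87-fold, adjusted p = 8.03e-07) and 1.36 ± 0.13 in Gcn (2.56-fold, adjusted p = 8.1e-05). Nolc1 followed at 0.49 ± 0.06 in Wt (adjusted p = 7.31e-05) and 0.96 ± 0.09 in Gcn (adjusted p = 7.48e-05). Bop1 was higher in Leu by 0.38 and 0.47, and Rrs1 by 0.45 and 0.38, in Wt and Gcn. In the other direction, Nop14 was at -0.41 ± 0.06 in Wt and -0.85 ± 0.08 in Gcn (adjusted p = 0.000323 and 7.48e-05). Rrp9 was at -0.33 ± 0.06 and -0.83 ± 0.09 (adjusted p = 0.00229 and 0.000126). Noc4l (-0.34 and -0.56), Nat10 (-0.33 and -0.49) and Wdr43 (-0.39 and -0.41) were lower in Leu as well. By role, 5 of the 13 small subunit factors were lower in Leu than in Arg in Wt cells (38.5%) and 1 was higher (7.69%). Of the 11 large subunit factors, 4 were higher (36.4%) and 1 was lower (9.09%). Over all genes 5.25% were higher and 4.76% lower. None of the 5 polymerase subunits was called in either genotype without the block, with values of -0.06 to 0.26. With the block, Polr1e was higher in Leu than in Arg in Gcn cells (adjusted p = 0.00309), and Polr1c was higher in both genotypes (adjusted p = 0.00897 in Wt and 0.0169 in Gcn). Of the 9 shared genes, Rrs1 lost its Gcn call under 6 alternatives and Wdr43 under 3 (highest adjusted p = 0.152 and 0.11).

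**Figure D3:**
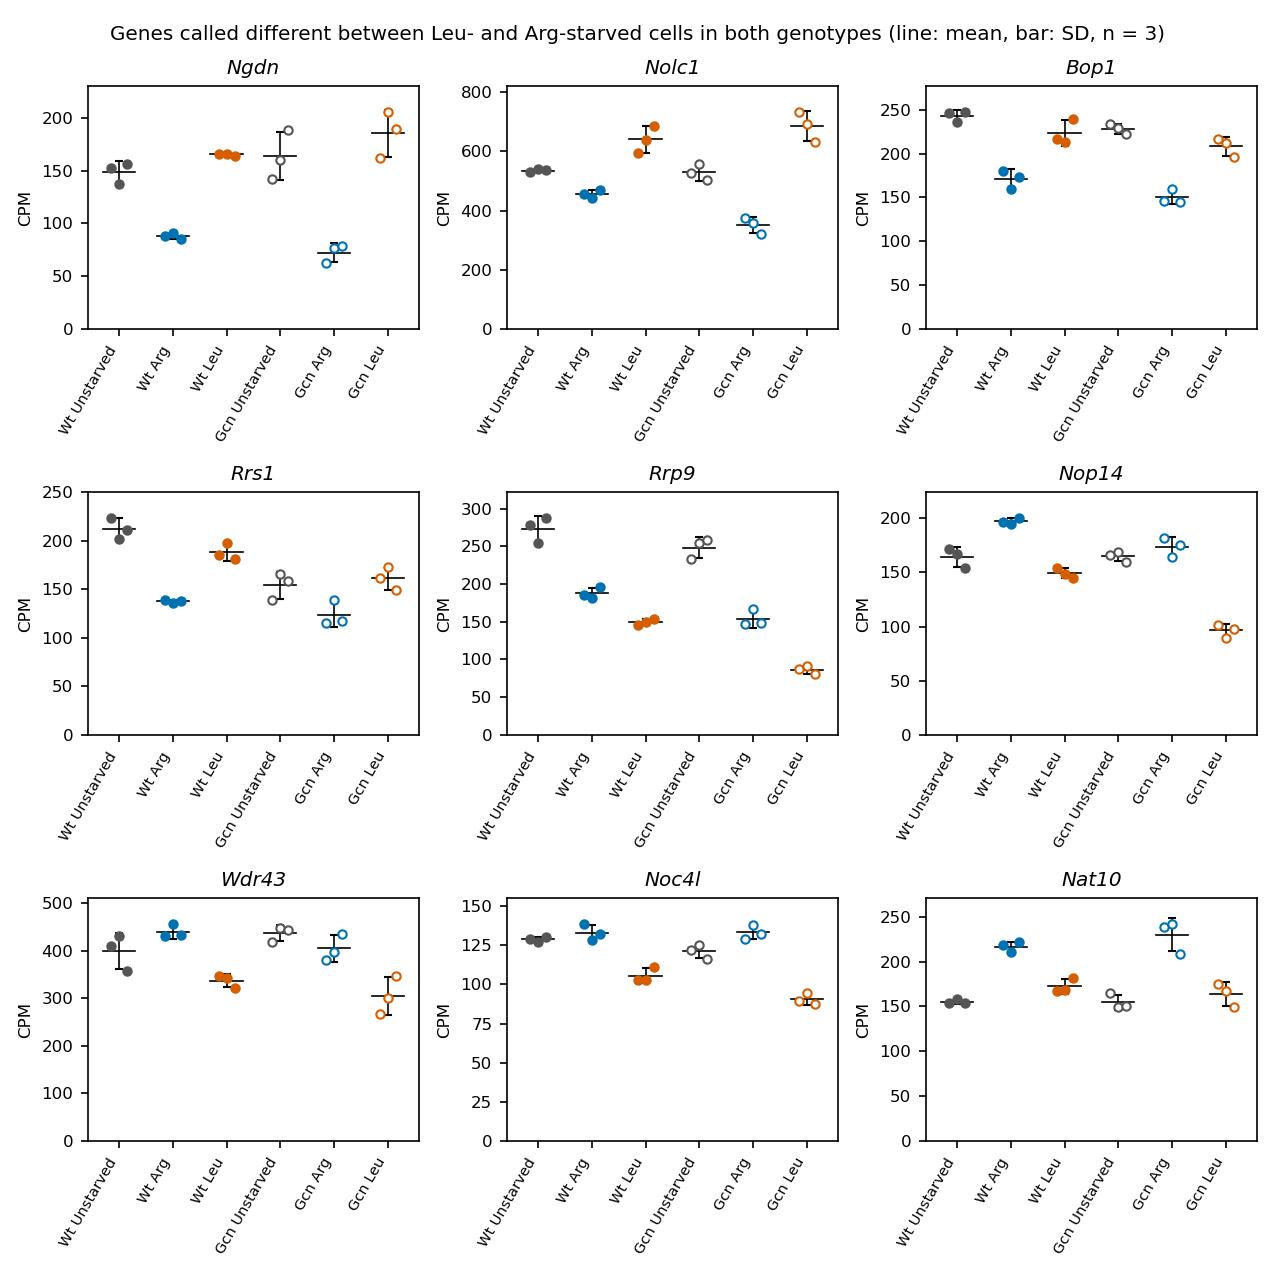
Level (CPM, y axis from 0) in each library of the 6 groups (x axis) for the 9 genes called different between Leu- and Arg-starved cells in both genotypes; points are libraries (filled Wt, open Gcn), lines are means and bars SD over 3 libraries. Ngdn, Nolc1, Bop1 and Rrs1 are lower in Arg than in Leu, and Rrp9, Nop14, Wdr43, Noc4l and Nat10 are higher in Arg than in Leu.

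**Figure D4:**
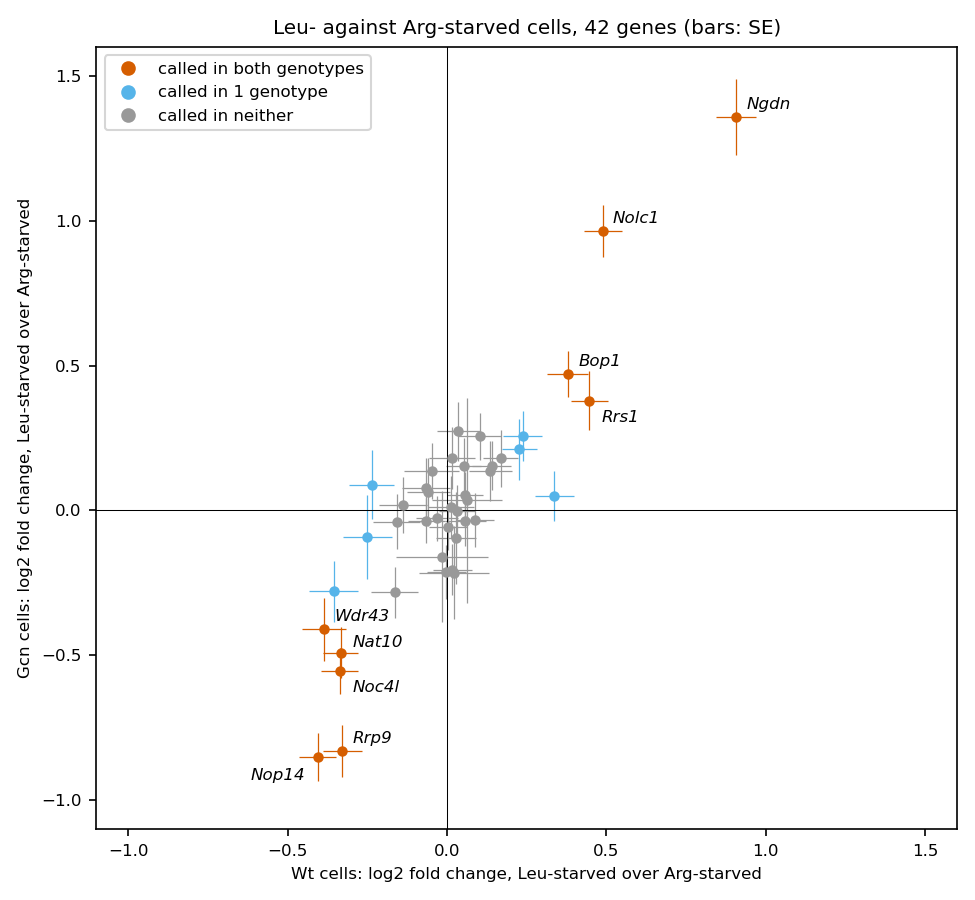
Log2 fold change of Leu- over Arg-starved cells for the 42 genes in Wt (x axis) and Gcn (y axis), bars are SE. The 9 genes called in both genotypes (orange) lie at the 2 ends, from Nop14 at -0.41 and -0.85 to Ngdn at 0.91 and 1.36.

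Before starvation, the genotypes already differed in 12 of the 42 genes: 9 were lower and 3 higher in Gcn Unstarved than in Wt Unstarved, where 16.2% and 16.6% of all 16924 genes were called (32.8% in either direction). The median over the 42 was -0.02, beside -0.004 over all genes. The 3 higher genes were Dkc1 (0.38 ± 0.09, adjusted p = 0.00209), Noc3l (0.34 ± 0.08, adjusted p = 0.00297) and Utp20 (0.31 ± 0.10, adjusted p = 0.0165). The lower genes included 5 large subunit factors: Rrs1 (-0.46 ± 0.08, adjusted p = 0.000187), Nle1 (-0.44 ± 0.08, adjusted p = 0.000296), Nop2 (-0.32), Nop16 (-0.25) and Noc2l (-0.20). The others were Polr1a (-0.29 ± 0.07, adjusted p = 0.00522), Polr1c (-0.32), Fbl (-0.51) and Gar1 (-0.75). Without the 3 Gcn libraries numbered 1, the calls of Fbl, Gar1, Utp20 and Noc2l were lost, the GC correction called Wdr12 lower (-0.33, adjusted p = 0.00178), and without Wt Unstarved library 1 Fbl was at -0.34 (adjusted p = 0.0843). Leaving out Gcn Unstarved library 1 or Wt Unstarved library 1 alone reduced the lower genes to 5, and leaving out Wt Unstarved library 2 raised the higher genes to 6.

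Other measures differed between the same 2 groups. The summed level of 7 fibroblast markers was 14.9 to 19.3 CPM in Wt Unstarved and 6.21 to 8.01 CPM in Gcn Unstarved, with Lum at 0 in both groups. That of 4 trophectoderm markers was 12.8 to 14.2 against 1.59 to 1.96 CPM, and the RNA quality sums given above did not overlap either. Mesoderm markers summed to 9.88 to 13.1 against 6.05 to 7.43 CPM, and neural ectoderm markers to 207.9 to 219.1 against 266.5 to 280.5 CPM. Their part in the differences was not tested.

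Whether the response differed between the genotypes was tested as an interaction, in which the Wt log2 change is subtracted from the Gcn one. The test compares 2 lines that also differed unstarved. It cannot tell the loss of GCN2 from other differences between them. For arginine starvation edgeR without a block called none of the 42 interactions. Over all genes it called 2.3% (0.62% higher and 1.68% lower). An unadjusted p under 0.05 was found for 13 of the 42 and for 2766 of all 16924 genes. DESeq2 called 4 of the 42 lower, beside 547 of the 11794 genes it tested. With a replicate block within genotype edgeR called 4 higher and 11 lower, beside 1000 and 1505 of all 16924 genes. The largest absolute values were those of Gar1 (0.75 ± 0.30, adjusted p = 0.21), Fbl (0.53 ± 0.21, adjusted p = 0.207) and Heatr1 (-0.45 ± 0.13, adjusted p = 0.0623). Ncl, called in Gcn and not in Wt cells, had an interaction of -0.44 ± 0.13 (adjusted p = 0.077), and Nolc1 one of -0.36 ± 0.11 (adjusted p = 0.0824). The larger fall of Ngdn in Gcn Arg gave -0.42 ± 0.14 (adjusted p = 0.126).

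For leucine starvation 2 of the 42 interactions were called, where 0.821% of all genes were (0.668% in that direction). Rrp9 fell further in Gcn than in Wt cells, with an interaction of -0.65 ± 0.10 (adjusted p = 0.00141). Nop14, called lower in Gcn Leu and not in Wt Leu, had an interaction of -0.64 ± 0.10 (adjusted p = 0.000799). Both were called whichever single library was left out, with GC correction (-0.71 and -0.62) and without the Gcn libraries numbered 1 (-0.68 and -0.66). Parp3 and Gm15522, whose exons overlap Rrp9 and Nop14 on the other strand, had 1.07% and 0.0474% of the counts of these genes. Of the other genes, Gar1 stood at 0.61 ± 0.30, and the polymerase subunits at 0.01 to 0.12 with SE of 0.09 to 0.13.

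The rest of the pathway was read from a list of 79 other genes, chosen with earlier results of these data known. In Wt Arg 39 of them fell (49.4%) and 12 rose (15.2%), beside 20% and 20.9% of all genes. In Wt Leu 25 fell (31.65%) and 5 rose (6.33%), beside 14.1% and 15.5%. In Gcn Arg 20 fell (25.3%) and 3 rose (3.8%), beside 13.7% and 14.3%. In Gcn Leu 17 fell (21.5%) and 1 rose (1.27%), beside 10% and 11.7%. With the block 40 fell and 6 rose in Gcn Arg, beside 24.2% and 22.3% of all genes. In Gcn Leu the block gave 31 falls and 9 rises, beside 20.2% and 20.5%. Without the block their medians were -0.18, -0.08, -0.16 and -0.09, beside -0.008, 0.007, -0.011 and 0.000 over all genes. Myc, the transcription factor known to drive many ribosome biogenesis genes through the E-box searched for above, fell in all 4 comparisons. It stood at 111, 108 and 110.3 CPM in Wt Unstarved, 64.9, 61.1 and 62.5 in Wt Arg and 81.6, 77.8 and 85.2 in Wt Leu, and at 77.6, 77.5 and 75.6 CPM in Gcn Unstarved, 39.4, 36.6 and 38.9 in Gcn Arg and 49.9, 46.8 and 51.6 in Gcn Leu. Arg libraries were lowest and Leu libraries intermediate in both genotypes, with log2 values of -0.80 ± 0.06 and -0.43 ± 0.06 in Wt and -0.999 ± 0.08 and -0.63 ± 0.08 in Gcn. Its partner Max fell in Wt Arg (-0.41), Wt Leu (-0.22) and Gcn Arg (-0.52), and Mycn fell in Wt Arg (-0.22).

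Among the transcription factors of RNA polymerase I, Taf1a, a subunit of the promoter selectivity factor, rose in all 4 comparisons. It stood at 19.1, 18.2 and 14.5 CPM in Wt Unstarved, 27.2, 26.4 and 25.2 in Wt Arg and 40.1, 33.9 and 33.8 in Wt Leu, and at 24.2, 23.2 and 25.8 CPM in Gcn Unstarved, 36.1, 38.3 and 38.6 in Gcn Arg and 50.8, 53.2 and 62.6 in Gcn Leu. Leu libraries were highest in both genotypes (log2 1.05 ± 0.10 in Wt and 1.20 ± 0.10 in Gcn, adjusted p = 1.33e-06 and 8.2e-06). Taf1d of the same factor fell in Wt Arg (-0.43) and Gcn Arg (-0.41), and Taf1b rose in Wt Arg (0.38) and Wt Leu (0.32). Ttf1, the termination factor, rose in Wt Arg (0.25) and Gcn Arg (0.41). Rrn3, which ties the polymerase to the promoter, and Ubtf, which organizes active rRNA genes, fell in Wt Arg (-0.18 and -0.21) and were called in none of the other 3 comparisons without the block. Taf1c was not called in any of the 4 (values of -0.22 to -0.04). The block called Ubtf and Taf1c lower in Gcn Arg (adjusted p = 0.0156 and 0.00826).

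Of 8 further polymerase I subunits, most of them shared with other polymerases, 6 fell and 1 rose in Wt Arg and 4 fell in Wt Leu. These were 75% and 12.5% in Wt Arg, beside 20% and 20.9% of all genes, and 50% in Wt Leu, beside 14.1%. None of the 8 was called in Gcn cells by edgeR without the block, where 28% (Arg) and 21.8% (Leu) of all genes were called in either direction. None had an interaction called for either starvation, so a difference between the genotypes was not shown. The largest fall was that of Polr2l in Wt Arg (-0.75 ± 0.10). Among assembly factors, Ppan fell in all 4 comparisons, with -1.03 ± 0.06 in Wt Arg and -0.94 ± 0.08 in Gcn Arg, and -0.45 and -0.55 in Leu. Nop9 also fell in all 4 (-0.73, -0.49, -0.68 and -0.52 in Wt Arg, Wt Leu, Gcn Arg and Gcn Leu). Wdr74 fell in the Arg comparisons (-0.58 and -0.82) and was at -0.14 and -0.05 in Leu. Utp18 and Wdr36, factors of the small subunit processome, fell in Wt Leu (-0.31 and -0.20) and Gcn Leu (-0.69 and -0.72), and so did Wdr46 (-0.70 and -0.74).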

How the data were processed

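The authors deposited raw counts per gene, one table per genotype, as whole numbers. The submitters' processing notes list STAR 2.7.4a, HTSeq and GRCm38, with bcl2fastq, R 4.0.3, DESeq 1.30.1, DESeq2 and FastQC 0.11.7 also listed, with no roles given. Per the labels' protocols, the libraries came from a directional poly(A) kit. The strand setting of the counting is not given in the sources used here, and exons of 20 of the 42 genes overlap another gene, 18 of them on the opposite strand. Symbols and positions came from GENCODE vM21 (55230 of 55471 identifiers matched), and promoter sequences from RefSeq.

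Counts were tested with edgeR 4.0.16 in R 4.3.3 (filterByExpr, TMM scaling, robust quasi-likelihood test), with Benjamini-Hochberg adjustment over all genes tested and calls at an adjusted p under 0.05. The 9 Wt and the 9 Gcn libraries were fitted separately, and all 18 together for genotype and interaction tests. The alternatives were DESeq2 1.42.0, other scalings, no filter, GC correction, a replicate block, all libraries in one fit, and libraries left out. The same steps were tested on simulated data. Same-numbered libraries deviated together in Gcn cells (correlations of 0.18 to 0.485) and in Wt Leu with Wt Arg (0.166 to 0.285). In Wt Arg and Wt Leu with Wt Unstarved these correlations were positive but did not all meet the 0.1 minimum (lowest 0.096 and 0.049). All Wt pairs with different numbers were negative (-0.239 to -0.00381). In Gcn cells some such pairs were positive. Gcn Unstarved library 3 correlated at 0.217 with Gcn Arg library 2, against 0.18 with Gcn Arg library 3.

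The 42 genes, the other pathway genes and the lists were chosen with earlier results of these data known. Values in every library are given by rule for the polymerase subunits and for genes called in a starvation comparison, or in an interaction, with an absolute log2 value of at least 0.5. Of the other pathway genes, the polymerase I transcription factors and at most the 3 largest changes per direction and comparison were eligible to be named. Nop10, Gar1 and Fbl library values beyond that rule were chosen after their values were seen.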

Additional observations from a re-analysis of the deposited data

Results flagged for a closer look

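Among the 42 and the 79 other pathway genes, 4 had an interaction between starvation and genotype called by edgeR without a block. DESeq2 called more of the 42 for arginine, and the replicate block within genotype called more for both starvations. The 2 lines also differed unstarved, so the test cannot tell the loss of GCN2 from other differences between them. The interaction test used all 18 libraries. For leucine it called 2 of the 42 (4.76%) and 1 of the 79 (1.27%), beside 0.821% of all genes. For arginine it called none of the 42 and 1 of the 79 (1.27%), below the 2.3% of all genes. In leucine starvation Rrp9 had an interaction of -0.65 (adjusted p = 0.00141) and Nop14 one of -0.64 (adjusted p = 0.000799), both with a larger fall in Gcn than in Wt cells. Wdr36, another small subunit processome factor, went the same way, with an interaction of -0.53 (adjusted p = 0.00497). In arginine starvation Rrp36, a factor of early rRNA cleavage, had an interaction of 0.47 (adjusted p = 0.0114): it fell in Wt Arg (-0.62) and was at -0.14 in Gcn Arg.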

How the results depend on the processing

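Counts of genes called higher and lower among the 42 are given in that order. With the replicate block they were 6 and 26 in Gcn Arg, 4 and 23 in Gcn Leu, and 12 and 10 in Gcn Leu against Gcn Arg, and the block with GC correction gave 6 and 26, 4 and 24, and 13 and 10. In the order of these Gcn comparisons, the block with GC correction called 3983 and 4088, 3758 and 3435, and 2738 and 2331 of all 16369 genes. The block with GC correction gave 7 rises in Wt Leu, beside 3060 of all 16140 genes. With the block within genotype the arginine interaction had 4 and 11 (1000 and 1505 of all 16924 genes). The leucine interaction had 2 and 6 (749 and 1129 of all genes). With GC correction added they had 2 and 10 and 2 and 5 (962 and 1397, and 834 and 982, of all genes). Here the numbers do not pair the libraries across genotypes. The fit over all 18 libraries gave 9 falls in Wt Leu, 17 in Gcn Leu and 7 rises in Gcn Leu against Gcn Arg. Over all 16924 genes it called 1679, 2288 and 1277 in these directions. The fits per genotype called 2275 of 16140, 1641 of 16369 and 760 of 16369 genes, so all genes moved the same way. Library size scaling gave 5 and 9 in Gcn Arg, and over all genes 71.2% of the Gcn Arg calls were then higher, against 51% with TMM scaling (71% against 53.9% in Gcn Leu). Without the filter on low counts, 66.4% of all calls in Gcn Leu against Gcn Arg were higher, against 54.5%. The arginine interaction had 4 genes lower by DESeq2, 5 without the filter, 1 with GC correction and 1 without the Gcn libraries numbered 1. Over all genes the lower calls were, in that order, 547 of 11794, 641 of 34604, 303 of 16924 and 292 of 17259. With 1 library left out, the counts ran from 6 to 12 and 17 to 20 in Wt Arg, 3 to 6 and 11 to 14 in Wt Leu, 2 to 3 and 11 to 15 in Gcn Arg, 2 to 3 and 6 to 12 in Gcn Leu, 5 to 7 and 6 to 7 in Wt Leu against Wt Arg, 3 to 4 and 4 to 6 in Gcn Leu against Gcn Arg, and 2 to 6 and 5 to 9 between unstarved genotypes. The arginine interaction then had 0 to 1 lower, and the leucine interaction 2 lower each time. With the block and GC correction, Taf1c in Wt Arg turned from -0.09 to 0.14 and Utp18 from 0.02 to -0.15. The cause of these changes was not tested.

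No value of the 42 genes changed sign with a call under DESeq2, GC correction, other scalings or a left-out library. With 3 libraries per group and a median biological coefficient of variation of 0.0804 in Wt and 0.114 in Gcn, changes of the size of the block's added calls lay near the threshold.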
